A study of Mus musculus with 5 samples.

Results

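The genes described here are Igf2, H19, Igf1, Igf1r and Igf2r, 5 of the 24411 genes counted in single circulating cells of mouse embryos. They were chosen by name as the insulin-like growth factor (IGF) axis and the non-coding RNA that shares its main locus, with the levels of Igf2 and H19 in blood, neural and mesenchyme cells already known. Differences between these classes of cell are therefore given as descriptions, without a test. The cells came from wild type C57BL/6 embryos at embryonic day 9.5 (E9.5, 2 batches) and embryonic day 10 (E10, 3 batches). Per the labels, all were taken from blood circulating in the heart and sorted as negative for the blood surface proteins TER119, CD41, CD43 and CD45. Single cells were then picked by hand, and their RNA was read with a form of STRT-seq that tags each captured molecule near its 3′ end with a unique molecular identifier (UMI). Nothing in the labels says that the batches came from separate litters, so p-values measure the spread between these samples, which may be technical. The classes were set by single genes in counts-per-million units (CPM), scaled to the UMIs of each cell. Blood cells had Alas2 (haem synthesis in red cells) at 400 CPM or more. Neural cells had Tubb3 (neuronal tubulin) at 150 CPM or more or Sox10 (a neural crest factor) at 50 CPM or more, and mesenchyme cells had Prrx1 (a limb and facial mesenchyme factor) at 100 CPM or more.

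IGF2 and IGF1 are secreted growth factors that signal through IGF1R, a receptor tyrosine kinase. IGF2R, the mannose 6-phosphate receptor, binds IGF2 at the surface and carries it to lysosomes, so it lowers the ligand without a growth signal. Igf2 and H19 lie side by side and share enhancers. In the mouse embryo Igf2 is transcribed from the paternal copy and H19 from the maternal copy, under one imprinting control region, while Igf2r is transcribed mainly from the maternal copy in most embryonic tissues.

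In the mm10 build (GRCm38, GENCODE M21 annotation), the H19 gene, which is not translated, spans chr7:142575529-142578143 on the minus strand. The Igf2 gene spans chr7:142650766-142666816 on the same strand, 72622 bases away. Igf1 lies at chr10:87858265-87937042 on the plus strand, Igf1r at chr7:67952827-68233668 on the plus strand and Igf2r at chr17:12682406-12769664 on the minus strand. Both genes of the pair host a microRNA hairpin, which makes their sequences the shortest way to see what each transcript carries. The mature forms below are from RefSeq (GRCm38.p6), all on the minus strand, with bases 2 to 8, the seed that pairs with targets, in capitals. The miR-675 forms lie in an exon of H19, at chr7:142577078-142577099 and chr7:142577112-142577133. The miR-483 forms lie inside the Igf2 span and outside its exons, at chr7:142654932-142654952 and chr7:142654968-142654989.
mmu-miR-675-3p: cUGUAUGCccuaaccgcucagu
mmu-miR-675-5p: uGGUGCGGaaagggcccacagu
mmu-miR-483-3p: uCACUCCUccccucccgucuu
mmu-miR-483-5p: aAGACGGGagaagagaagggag
The 4 seeds differ from each other. The labels name polyadenylated RNA as the molecule captured, and mature microRNAs were not measured. The row for Mir675 stood at 0 in the kept cells, and that for Mir483 had a UMI in 12 of them, 9 of these mesenchyme cells, with a mean of 0.449 CPM over all kept cells.

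Promoters were matched for 4 of the 5 genes, and those of the ligands are shown beside those of the receptors because the mean levels of the ligands differed more between neural and mesenchyme cells than those of the receptors. Each sequence runs 250 bases before to 50 bases after an annotated start (RefSeq, GRCm38.p6), 5′ to 3′ on the gene's own strand, with the letters GGGCGG or their reverse complement CCGCCC (a GC box) in capitals. They lie at chr7:142657447-142657746 on the minus strand for Igf2, chr10:87860861-87861160 on the plus strand for Igf1, chr7:67952007-67952306 on the plus strand for Igf1r and chr17:12769657-12769956 on the minus strand for Igf2r.
Igf2: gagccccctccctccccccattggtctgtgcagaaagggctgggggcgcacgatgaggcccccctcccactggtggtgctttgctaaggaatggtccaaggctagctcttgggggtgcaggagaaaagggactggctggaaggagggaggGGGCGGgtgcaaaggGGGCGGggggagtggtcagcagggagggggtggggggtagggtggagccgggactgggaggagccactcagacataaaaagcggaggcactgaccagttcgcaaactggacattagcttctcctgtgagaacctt
Igf1: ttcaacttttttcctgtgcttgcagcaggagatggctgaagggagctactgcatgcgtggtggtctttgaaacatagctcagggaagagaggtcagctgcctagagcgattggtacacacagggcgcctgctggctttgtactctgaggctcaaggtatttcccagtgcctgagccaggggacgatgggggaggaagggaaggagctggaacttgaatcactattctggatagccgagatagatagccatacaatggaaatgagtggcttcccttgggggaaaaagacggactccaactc
Igf1r: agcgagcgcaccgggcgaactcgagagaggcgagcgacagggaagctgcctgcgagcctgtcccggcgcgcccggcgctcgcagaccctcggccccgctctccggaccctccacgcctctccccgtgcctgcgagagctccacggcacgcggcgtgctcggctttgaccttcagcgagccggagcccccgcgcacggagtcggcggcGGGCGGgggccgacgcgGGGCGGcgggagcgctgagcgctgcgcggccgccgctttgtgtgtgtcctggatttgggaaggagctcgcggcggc
Igf2r: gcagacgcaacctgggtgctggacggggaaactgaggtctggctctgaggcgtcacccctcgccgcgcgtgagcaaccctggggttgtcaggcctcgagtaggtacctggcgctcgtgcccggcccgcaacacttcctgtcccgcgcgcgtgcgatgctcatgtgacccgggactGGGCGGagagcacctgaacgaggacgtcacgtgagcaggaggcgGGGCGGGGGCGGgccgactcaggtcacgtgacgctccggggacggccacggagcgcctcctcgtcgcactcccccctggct
The receptor promoters were rich in CpG dinucleotides, with 48 in Igf1r and 34 in Igf2r against a median of 7 over 32851 promoters of the same 300 bases. Those of Igf2 and Igf1 held 7 and 6, and the other 3 annotated Igf2 starts held 2, 14 and 24. The GC box was found 2 times in Igf1r, 3 times in Igf2r, 2 times in the Igf2 promoter shown and 0 times in Igf1, where 35.7% of all promoters held at least 1. The letters TATAAA, on either strand, were in none of these windows and in 13.6% of all promoters.

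After removal of spike-in rows, 294 cells had at least 1000 genes and 30000 UMIs. They numbered 26 and 46 in E9.5 replicates 1 and 2, and 87, 72 and 63 in E10 replicates 1, 2 and 3, with 31294 to 1407021 UMIs per cell and a median of 308924. The rule found 46 blood, 49 neural and 128 mesenchyme cells, 3 of them both neural and mesenchyme, and 74 cells of no class. E9.5 replicate 1 and E10 replicate 1 held 1 blood cell each, so blood levels rest on the other 3 batches. The nearest cells inside and outside the limits had 616 and 343 CPM of Alas2, 154 and 145 CPM of Tubb3, 56.3 and 42.9 CPM of Sox10, and 105 and 97.8 CPM of Prrx1. The 7 blood markers summed to a mean 186444 CPM in blood cells, although the sort was set against blood cells. The 9 mesenchyme markers summed to 2382 CPM in mesenchyme, 632 in neural and 93.1 in blood cells, and the 8 neural markers to 4620 CPM in neural, 128 in mesenchyme and 88.6 in blood cells. All batches used the same 96 well numbers, and 0 of the kept cells was flagged as a faint copy of the same well in another batch. Only a cell with under 0.1 of the UMIs of that well could be flagged, so the check did not cover the deeper cells. E10 replicate 2 stood apart: its mesenchyme cells carried 59702 CPM of blood markers (40421 to 122862), against 372 CPM in E10 replicate 1 and 7059 to 18144 CPM in the other batches. Blood markers in its mesenchyme cells thus reached 30.8% of the level in its own blood cells, against 12.1% in the second E9.5 batch and 6.19% in the last E10 batch. For the 5 genes, most class and stage differences that include E10 replicate 2 are given with and without it. Values for the wider pathway genes and for cells of no class are given only with it. E10 replicate 1 stood apart in another way: the 5 pluripotency markers summed to 100 CPM or more in 28 of its 87 cells, 14 of them mesenchyme, and in no kept cell of another batch. They averaged 712 CPM in its mesenchyme cells against under 1 CPM in those of each other batch.

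Igf2 was high in mesenchyme cells of every batch. Its mean level there was 1275 and 1083 CPM at E9.5 (replicates 1 and 2) and 1858, 1797 and 1826 CPM at E10 (replicates 1, 2 and 3), the order kept for batches below. The E10 batches lay close together and above both E9.5 batches. In neural cells, in the same order, Igf2 stood at 97.4, 58.1, 695, 416 and 161 CPM. The 695 CPM of E10 replicate 1 is a mean of 15 cells with a median of 163 CPM. It includes 2 cells, at 5131 and 1985 CPM, that also met the Prrx1 limit and count as mesenchyme too. No neural mean reached the lowest mesenchyme mean. Within batches Igf2 was 7.96-fold higher in mesenchyme than in neural cells (log2 difference 2.99 ± 1.18, SD, n = 5 batches, higher in 5 of 5). Without E10 replicate 2 the log2 difference was 3.21 ± 1.23, and without E10 replicate 1 it was 3.39 ± 0.90 (n = 4 each).

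Blood cells held little Igf2 in most batches. The second E9.5 batch had a mean of 106 CPM, and E10 replicates 2 and 3 had 447 and 59.2 CPM. The lone blood cells of the first E9.5 and first E10 batch had 111 and 54.6 CPM, which left E10 replicate 2 as the high one. Within batches mesenchyme exceeded blood 10.8-fold (log2 difference 3.44 ± 1.47, SD, n = 3 batches), or by 4.15 ± 1.12 on the log2 scale without E10 replicate 2 (n = 2). Neural and blood cells lay in no fixed order, with a log2 difference of 0.16 ± 1.17 (SD, n = 3; 0.29 ± 1.63 without E10 replicate 2, n = 2) and neural higher in 1 of 3 batches.

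The Igf2 level of blood cells moved with their content of mesenchyme markers. As a percentage of the mesenchyme cells of the same batch, Igf2 in blood cells stood at 24.9% in E10 replicate 2, at 9.75% in the second E9.5 batch and at 3.24% in the last E10 batch. The summed mesenchyme markers stood at 11.2%, 4.77% and 2.09% in the same order. Both measures put the batches in one order, and Igf2 was above the markers in each. The part that free RNA between wells has in the Igf2 of blood cells was not tested.

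**Figure D1:**
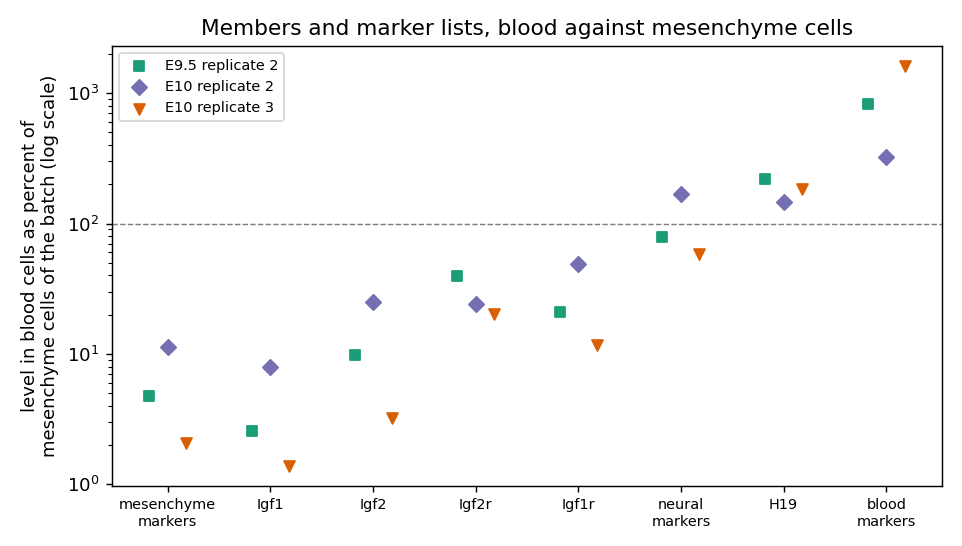
Mean level in blood cells as a percentage of the mesenchyme cells of the same batch (log axis) for the 5 genes and the summed blood, mesenchyme and neural markers, in the 3 batches with at least 3 blood cells. H19 lies above 100% in all 3 batches, at 147% to 218%. Igf2 lies at 3.24% to 24.9%, above the mesenchyme markers of the same batch, which lie at 2.09% to 11.2%.

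H19 ran in another order, with blood cells highest. In blood its mean was 1942 CPM in the second E9.5 batch, and 4203 and 3492 CPM in E10 replicates 2 and 3. The lone blood cells of the first batch at E9.5 and at E10 had 1354 and 5597 CPM. In mesenchyme, over the 5 batches in order, it was 925, 889, 1643, 2852 and 1913 CPM. In neural cells it was 572, 475, 1058, 1462 and 556 CPM. The order of blood, mesenchyme and neural held in each of the 3 batches with blood cells.

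Within batches H19 in mesenchyme was 0.85 below blood on the log2 scale (-0.85 ± 0.28, SD, n = 3, lower in 3 of 3; -0.998 ± 0.18 without E10 replicate 2, n = 2). Neural cells were lower again, at -2.07 ± 0.56 against blood (SD, n = 3; -2.34 ± 0.44 without E10 replicate 2, n = 2). Mesenchyme exceeded neural cells 1.99-fold (log2 difference 1.00 ± 0.46, SD, n = 5, higher in 5 of 5; spread 0.53 at the same mean without E10 replicate 2, n = 4). H19 in mesenchyme was highest in E10 replicate 2, the batch with most blood markers in its mesenchyme cells. The part of blood RNA in that value was not tested.

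Every kept cell held at least 1 UMI of Igf2 and 1 of H19. At this depth that is no measure of expression, since the haemoglobin gene Hbb-y also had a UMI in 49 of 49 neural cells and the mesenchyme gene Twist1 in 46 of 46 blood cells. Single mesenchyme cells ranged from 77.3 to 5965 CPM of Igf2 (median 1483) and from 240 to 6658 CPM of H19 (median 1418). Neural cells ranged from 9.02 to 5131 CPM of Igf2 (median 90.5) and from 78.5 to 6128 CPM of H19 (median 401). Blood cells ranged from 23.3 to 1134 CPM of Igf2 (median 286) and from 1261 to 9130 CPM of H19 (median 3496). With cells pooled over batches, the spread of Igf2 relative to its mean was widest in neural cells. The coefficient of variation was 2.40 against 0.653 in mesenchyme and 0.845 in blood, and it includes differences between batches. Within E10 replicate 2 neural cells were the narrowest, with an SD of 119 CPM around a mean of 416. Blood cells there had 164 around 447 and mesenchyme cells 559 around 1797. In each other batch neural cells were the widest of the classes with at least 3 cells. The highest neural cell, at 5131 CPM of Igf2 and 6128 CPM of H19, was 1 of the 3 cells that also met the Prrx1 limit, and the other two had 1985 and 96.9 CPM of Igf2. By route into the neural class, Igf2 had a median of 88.0 CPM in the 19 cells with Tubb3 alone, 112 in the 18 with Sox10 alone and 67.9 in the 12 with both. In E10 replicate 1 these medians were 383, 207 and 57.5 CPM, over 5, 7 and 3 cells.

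**Figure D2:**
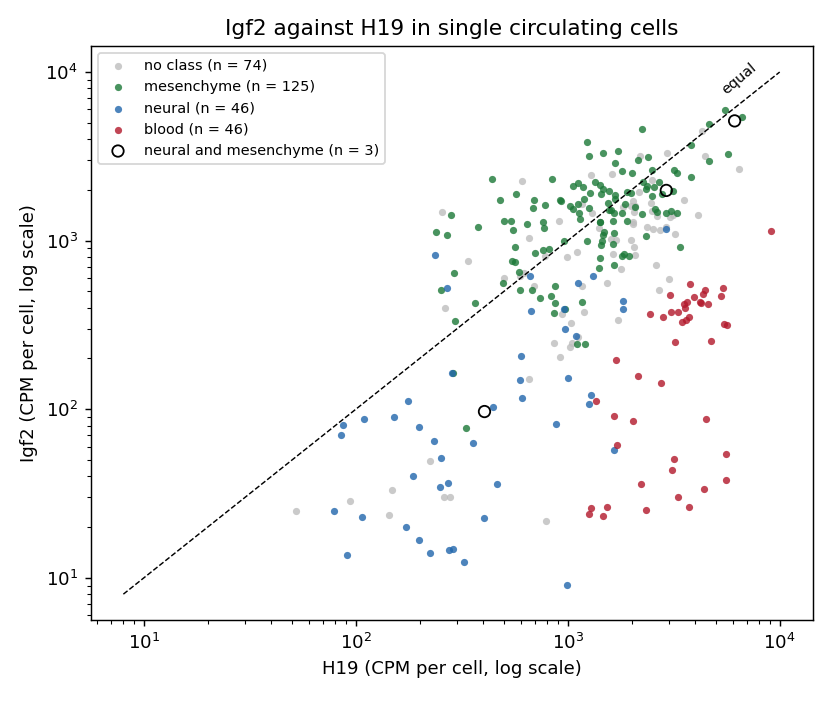
H19 against Igf2 in each of the 294 kept cells, both in CPM on log axes, coloured by class. Mesenchyme cells gather around the line of equal counts, blood cells lie in a group at high H19 (1261 to 9130 CPM) and lower Igf2 (23.3 to 1134 CPM), and neural cells extend to low values of both.

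The Igf2 to H19 ratio of each cell, taken from its UMIs with 1 added to both, had batch medians that rose from blood to neural to mesenchyme. Single cells of different classes overlapped. In the second E9.5 batch the log2 ratio ran from -6.20 to -0.29 in neural cells and from -5.78 to -3.07 in blood cells. The ratio is one of captured 3′ tags, comparable between cells and not a ratio of molecules made by the 2 genes. In mesenchyme the median log2 ratio was 0.80 and 0.14 at E9.5 and 0.20, -0.60 and -0.28 at E10, which puts it near equal counts. In neural cells it was -2.66, -3.52, -0.76, -2.03 and -2.33 in the same order. In blood it was -4.34 in the second E9.5 batch, and -3.16 and -6.07 in E10 replicates 2 and 3, with the lone cells at -3.58 (E9.5) and -6.64 (E10). The medians kept that order of classes within each of the 3 batches with several blood cells. The mean of the batch medians was 0.05 ± 0.53 in mesenchyme (SD, n = 5), -2.26 ± 1.01 in neural cells (n = 5) and -4.52 ± 1.46 in blood (n = 3). Without E10 replicate 2 these were 0.22 ± 0.45, -2.32 ± 1.15 and -5.20 ± 1.23, with n of 4, 4 and 2.

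Counted by cell, Igf2 exceeded H19 in 65 of 128 mesenchyme cells, in 2 of 49 neural cells and in 0 of 46 blood cells. Taken as 3 over the number of cells, 0 of 46 allows a share of up to 6.52% of blood cells. That limit covers counting error only, and 23 of the 46 blood cells came from E10 replicate 2. The mesenchyme cells with more Igf2 were 10 of 15 and 12 of 21 at E9.5, then 34 of 53, 0 of 16 and 9 of 23 at E10. E10 replicate 2 held no cell of any class with more Igf2 than H19, 0 of 72. Summed over cells, mesenchyme gave 69358 UMIs of Igf2 and 66110 of H19, neural cells 4053 and 11100, and blood cells 4308 and 63237. Among the blood cells the ratio was nearly fixed in E10 replicate 2, with an SD over cells of 0.36 on the log2 scale, against 0.93 in the second E9.5 batch and 0.84 in the last E10 batch.

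**Figure D3:**
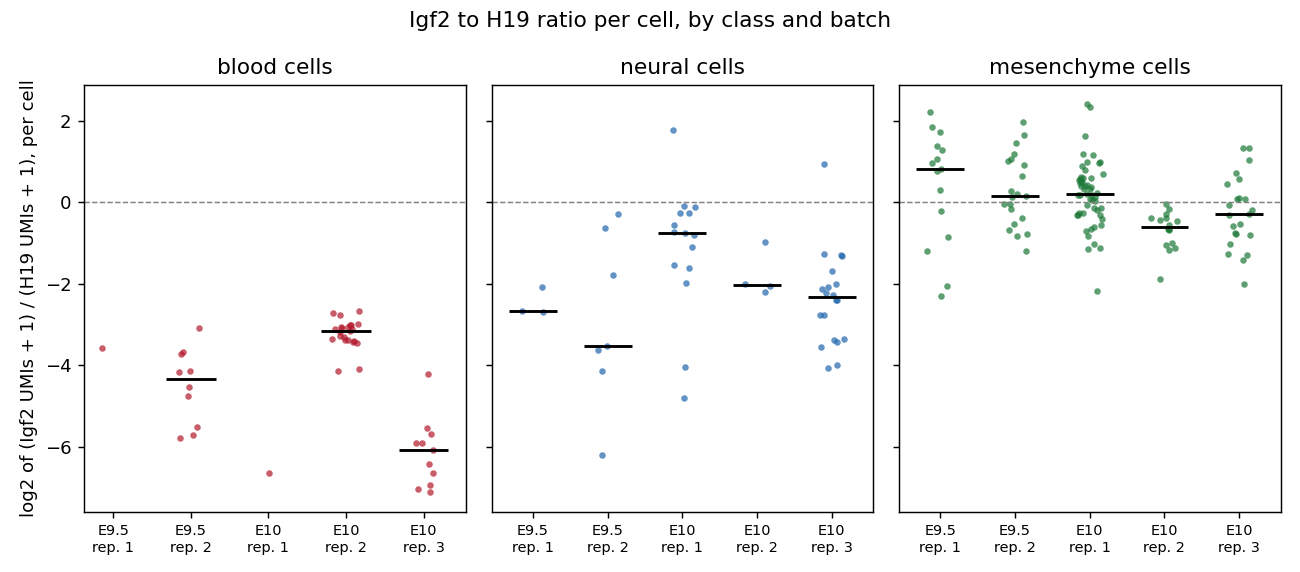
Log2 ratio of Igf2 to H19 UMIs in every blood, neural and mesenchyme cell, by batch, with a bar at the median of each batch. Mesenchyme medians lie between -0.60 and 0.80, neural medians between -3.52 and -0.76, and blood medians at or under -3.16.

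Across single mesenchyme cells of a batch, Igf2 and H19 varied together. Spearman's rho was 0.16 and 0.51 at E9.5, over 15 and 21 cells, and 0.68, 0.30 and 0.47 at E10, over 53, 16 and 23 cells. These cells share their library, and a CPM is a share of the cell's total, so the values are a description. The mean of 0.43 was the highest that either gene had with any of 7175 genes seen in at least 50% of mesenchyme cells, where the median gene had -0.03 with Igf2 and -0.01 with H19. The genes next most like Igf2 were Cd248 at 0.42, Lamp2 at 0.41, Trim24 at 0.40 and Chd3 at 0.40. Those next most like H19 were Cdkn1c at 0.41, Zfp521 at 0.40, Ltbp1 at 0.38 and Ncam1 at 0.36. Of all genes compared, 1% exceeded 0.28 with Igf2 and 0.26 with H19. Igf2 had a mean rho of -0.14 with the total UMIs of the mesenchyme cells, which hides opposite signs. By batch it was -0.71 and -0.13 at E9.5 and -0.20, 0.47 and -0.13 at E10. In E9.5 replicate 1 Igf2 was thus tied more closely to depth than to H19.

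Igf1, the other ligand of IGF1R, reached 100 CPM only in some mesenchyme cells and cells of no class. Its mean in mesenchyme was 65.5 and 243 CPM at E9.5 and 62.2, 43.7 and 369 CPM at E10. The second E9.5 and the last E10 batch were high and the other 3 batches low, so the split did not follow stage. In neural cells it was 8.47, 12.4, 1.63, 10.3 and 5.43 CPM in the same order. In blood it was 6.19 CPM in the second E9.5 batch, and 3.46 and 5.13 CPM in E10 replicates 2 and 3. Within batches mesenchyme exceeded neural cells by 4.13 ± 1.64 on the log2 scale (SD, n = 5, higher in 5 of 5) and blood by 5.04 ± 1.27 (n = 3, higher in 3 of 3). These were 4.65 ± 1.35 (n = 4) and 5.73 ± 0.62 (n = 2) without E10 replicate 2.

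Within mesenchyme Igf1 was uneven between cells and between batches. It had a median of 12.8 CPM, a maximum of 2042 CPM and 35 cells at 0, with a coefficient of variation of 2.002. At 100 CPM or more stood 39 of 128 mesenchyme cells, 30.5% (exact binomial 95% interval 22.6 to 39.2, which covers counting error only). They were 3 of 15 and 11 of 21 at E9.5, then 11 of 53, 2 of 16 and 12 of 23 at E10, so the share ran from 2 of 16 to just over 50% in the second E9.5 and the last E10 batch. That level was reached by 0 of 49 neural and 0 of 46 blood cells, and by 7 of 74 cells of no class. The counts of 0 allow up to 6.12% and 6.52% (3 over the number of cells, counting error only). With each cell thinned to 30000 UMIs, 46.1% of mesenchyme, 18.4% of neural and 10.9% of blood cells kept an Igf1 UMI. Unthinned shares were 72.7%, 51.0% and 76.1% at median depths of 272156, 276342 and 371308 UMIs, and the deepest class, blood, had the highest unthinned and the lowest thinned share.

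The mesenchyme cells high in Igf1 did not differ from the rest in 1 direction in their Igf2. Cells at 100 CPM of Igf1 or more averaged 1500 CPM of Igf2 against 1219 CPM in the rest in the first E9.5 batch, and 1182 against 974 CPM in the second. At E10 they averaged 1490 against 1954 CPM, 1728 against 1807 CPM and 1330 against 2367 CPM. The Igf1-high cells were the higher group in both E9.5 batches and the lower in all 3 E10 batches. The mean rho of Igf1 with Igf2 over mesenchyme cells was -0.09. By batch it was -0.22 and 0.21 at E9.5 and -0.06, -0.25 and -0.12 at E10, so it was negative in the first E9.5 batch too.

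The signalling receptor Igf1r was spread over neural and mesenchyme cells and low in blood. In neural cells it stood at 207, 223, 185, 101 and 175 CPM over the 5 batches in order. In mesenchyme it was 172, 56.4, 223, 79.5 and 132 CPM. The ranges overlapped, with a log2 difference of mesenchyme over neural of -0.55 ± 0.85 (SD, n = 5; -0.60 ± 0.97 without E10 replicate 2, n = 4) and neural higher in 4 of 5 batches. In blood it was 11.8 CPM in the second E9.5 batch, and 38.6 and 15.5 CPM in E10 replicates 2 and 3. Neural cells exceeded blood by 3.04 ± 1.48 on the log2 scale (SD, n = 3; 3.87 ± 0.53 without E10 replicate 2, n = 2), and mesenchyme exceeded blood by 2.13 ± 1.03 (n = 3; 2.67 ± 0.58 without it, n = 2). Thinned to 30000 UMIs, 89.8% of neural, 73.4% of mesenchyme and 50% of blood cells kept an Igf1r UMI.

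Igf2r, the clearance receptor for IGF2, was lower in blood than in the other classes and did not separate neural from mesenchyme cells. In mesenchyme it stood at 68.1, 25.2, 84.0, 45.9 and 63.5 CPM over the 5 batches in order. In neural cells it was 16.9, 41.4, 71.2, 18.9 and 38.8 CPM. Mesenchyme was higher in 4 of 5 batches, by 0.70 ± 1.03 on the log2 scale (SD, n = 5; 0.56 ± 1.13 without E10 replicate 2, n = 4), a mean smaller than its spread. In blood it was 9.99 CPM in the second E9.5 batch, and 11.02 and 12.9 CPM in E10 replicates 2 and 3, below both other classes in each of these batches. Thinned shares of cells with an Igf2r UMI were 60.2% in mesenchyme, 49.0% in neural cells and 17.4% in blood. The antisense gene Airn overlaps Igf2r by 28354 bases, at the 5′ end of both gene spans. Molecules were tagged near their 3′ end, which lies outside this overlap for both genes. Without a stated strand setting, reads that fall inside the overlap cannot be told apart. In the same annotation Gm49394 covers 16048 bases of Igf2 on the same strand, and which annotation was counted is not given in the sources used here.

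Stage was no part of the choice of genes and was tested over the 5 batches with edgeR's quasi-likelihood test on UMIs summed per batch, fitted on all genes. In mesenchyme cells 0 of 11530 genes passed an adjusted p of 0.05, 0% of those tested, with 1171 at an unadjusted p under 0.05 and 125 genes called by DESeq2. Each batch holds 1 stage, so stage and batch cannot be told apart beyond the replicates. H19 in mesenchyme, in CPM scaled by the TMM method of edgeR, was 870 and 909 at E9.5 against 1329, 3114 and 1773 at E10. Igf2 on that scale was 1124 and 1152 against 1549, 2038 and 1640. For both genes every E10 batch lay above every E9.5 batch, as 29.5% of all genes tested did in either direction. The log2 difference of E10 over E9.5 was 1.22 for H19 (SE 0.33, edgeR adjusted p 0.434, unadjusted p 0.00404) and 0.61 for Igf2 (SE 0.22, edgeR adjusted p 0.447, unadjusted p 0.0176). Without E10 replicate 2 these were 0.80 (edgeR adjusted p 0.422) and 0.49 (edgeR adjusted p 0.442), and without E10 replicate 1 they were 1.45 and 0.69 (edgeR adjusted p 0.687 for both).

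The call for H19 turned on the count filter. With no filter on low counts its edgeR adjusted p was 0.00172, at a log2 difference of 1.23. DESeq2 gave an adjusted p of 0.0502, which did not pass. No other setting tried brought H19 past the threshold, and none brought Igf2 past it.

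**Figure D4:**
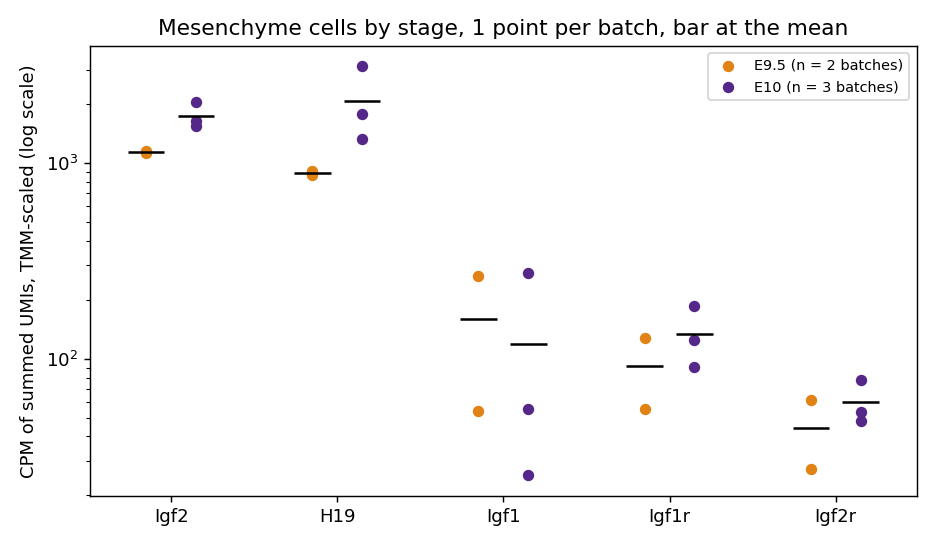
TMM-scaled CPM (log axis) of the 5 genes in summed mesenchyme cells, with a point for each of the 2 E9.5 and 3 E10 batches. H19 and Igf2 lie higher in all 3 E10 batches than in both E9.5 batches, while Igf1, Igf1r and Igf2r overlap between stages.

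In mesenchyme the remaining genes, Igf1, Igf1r and Igf2r, overlapped between stages. Igf1 was 53.7 and 263 TMM-scaled CPM at E9.5 against 55.3, 25.4 and 274 at E10 (log2 difference -0.42, SE 0.85, edgeR adjusted p 0.916), and without E10 replicate 2 the difference was 0.06. Igf1r differed by 0.54 (SE 0.42, edgeR adjusted p 0.705) and Igf2r by 0.42 (SE 0.44, edgeR adjusted p 0.792), or by 0.75 and 0.55 without E10 replicate 2. The Igf1r difference ran from 0.070 without the second E9.5 batch to 1.26 without the first. Over all 294 kept cells, whose mix of classes differs between batches, 0 of 14103 genes passed (0%), with 1119 at an unadjusted p under 0.05 and 88 called by DESeq2. H19 was then 803 and 1101 against 1258, 3139 and 1755 TMM-scaled CPM (log2 difference 1.11, SE 0.42, edgeR adjusted p 0.616), and stage ranges failed to overlap for it as for 28% of genes. Without E10 replicate 2 this difference was 0.66 (edgeR adjusted p 0.632). Igf2 over all kept cells was 922 and 454 against 1186, 949 and 666 (log2 difference 0.44, SE 0.38, edgeR adjusted p 0.754), with overlap, and this difference ran from 0.014 without the second E9.5 batch to 1.02 without the first, with 0.43 without E10 replicate 2. Igf1 over all kept cells was 91.1 and 78.6 against 35.8, 13.1 and 77.6 (log2 difference -1.01, SE 0.64, edgeR adjusted p 0.656). The E10 batches all lay below both E9.5 batches, with the closest at 77.6 against 78.6, where 28% of all genes failed to overlap in either direction. The log2 difference was -0.58 without E10 replicate 2 and -1.80 without the last E10 batch.

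The Igf2 to H19 ratio of summed mesenchyme UMIs was 0.37 and 0.34 on the log2 scale at E9.5, and 0.22, -0.61 and -0.11 at E10. The E9.5 batches were the highest of the 5. The stage means were 0.35 ± 0.02 (SD, n = 2) and -0.17 ± 0.42 (SD, n = 3), a difference of -0.52. Permuting the batches exactly over the 10 splits, two-sided, gave p = 0.2, where the smallest possible is 0.1. Without E10 replicate 2 the difference was -0.30, with an exact permutation p of 0.333, which is the smallest that 2 against 2 batches allow. Without E10 replicate 1 it was -0.72, at the same smallest p.

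The wider pathway was followed in 65 genes in 5 role lists, of ligands, receptors, binding proteins and proteases, intracellular mediators, and genes at or acting on the imprinted loci. In mesenchyme 49 could be tested by stage, and 0 passed in either direction. Their median log2 difference was 0.25, beside 0.04 over all genes tested, and 32 of 49 were positive. In all kept cells 55 could be tested, 0 passed in either direction, and the median was 0.23 beside 0.09 over all genes. The most abundant members of each list are described by class below, with SDs over 5 batches (3 for blood). These means include E10 replicate 2 and are not paired within batches, so blood rests on fewer batches than the classes beside it.

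Among the binding proteins, which hold IGFs in the extracellular space and limit or prolong their action, Igfbp4 had the highest level. It stood at 533 ± 193 CPM in mesenchyme, 250 ± 71.3 in neural cells and 34.7 ± 25.5 in blood. Igfbp5 reached 274 ± 248 CPM in mesenchyme and 206 ± 220 in neural cells, ranges that overlapped, and 20.0 ± 25.0 in blood. Igfbp2 stood at 73.7 ± 41.6, 34.7 ± 13.4 and 5.47 ± 4.94 CPM in the same order. Grb10, an imprinted adaptor that dampens signalling of the insulin and IGF1 receptors, was highest in neural cells, at 1104 ± 286 CPM against 640 ± 192 in mesenchyme and 278 ± 69.5 in blood. The insulin receptor Insr was low throughout, at 41.2 ± 22.8 CPM in neural cells, 25.4 ± 9.39 in mesenchyme and 8.65 ± 4.31 in blood. Akt1, a kinase downstream of the receptors, stood at 192 ± 43.3 CPM in mesenchyme, 163 ± 24.8 in neural cells and 58.8 ± 42.9 in blood. Eif4ebp1, a repressor of translation that the pathway inactivates, stood at 277 ± 241 CPM in blood, 219 ± 67.8 in mesenchyme and 107 ± 42.1 in neural cells, with wide overlap. Trim28, a corepressor that maintains methylation at imprinted regions, stood at 829 ± 277 CPM in mesenchyme, 583 ± 129 in neural cells and 258 ± 161 in blood. Igf2bp1, an RNA-binding protein named for its binding to Igf2 mRNA, stood at 353 ± 61.5 CPM in neural cells, 306 ± 107 in mesenchyme and 50.5 ± 25.8 in blood, so it was abundant in neural cells where Igf2 was low. Ins2, the next gene beyond Igf2, averaged 0.0339 CPM over all kept cells.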

How the data were processed

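UMI counts per gene and cell were used as deposited by the authors. The submitters' processing notes list CASAVA 1.8, TopHat2 2.0.12, HTSeq and the mm10 build. The HTSeq version and the strand setting of counting are not given in the sources used here. Reads inside the overlap of 2 genes, such as Igf2 with Igf2os or Igf1 with Igf1os, therefore cannot be told apart. The overlap of Igf2 with Igf2os lies at the 5′ end of both gene spans, away from the tagged 3′ ends. Columns were matched to samples by batch number alone. The genes and lists were chosen with earlier results of these data known.

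Spike-in rows were dropped, and levels by class are means over cells of CPM, then over batches with at least 3 cells. No doublet caller was run, because cells were picked singly. Stage tests used edgeR 4.0.16 in R 4.3.3 (filterByExpr, TMM, Benjamini-Hochberg at 0.05) on counts summed over cells in batches with at least 5 cells. They were tried on simulated data with planted changes larger than the stage differences of the 5 genes. That trial cannot show whether differences of the size reported here would be found. DESeq2 1.42.0 was the second tool. The SE is the log2 difference divided by the square root of F. Python 3.11.15 and scipy 1.17.1 gave ranks and intervals. Sequences are RefSeq's.

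Besides the 5 genes, the text names the 3 of each role list with the highest mean CPM and, for Igf2 and H19, the 5 most alike by mean rho within batches (at least 10 mesenchyme cells). The alternatives were another tool, scaling, count filter, cell filter, class limit, weighting, pseudocount and depth, and leaving out each batch.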

Additional observations from a re-analysis of the deposited data

How the results depend on the processing

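Of 319 values recomputed under other settings, 303 kept their direction and their side of the threshold or moved by less than the spread between batches. Genes called by stage numbered 0 in both comparisons. In all kept cells DESeq2 called 88, and in mesenchyme DESeq2 called 125, edgeR with no count filter 153, and edgeR with 1 batch left out 0 to 12 (3 without E9.5 replicate 1, 12 without E9.5 replicate 2). H19 in mesenchyme over neural cells moved from 1.00 to 1.47 on the log2 scale with the median over cells. With 1 batch left out, the mean mesenchyme log2 ratio of Igf2 to H19 ran from -0.14 (without E9.5 replicate 1) to 0.22, so its sign is not settled. Igf1 in neural over blood cells turned to -0.56 with the median over cells, and Igf2 in neural over blood cells ran from -0.48 to 0.67. Stage differences turned sign with 1 batch left out for Igf2r in all kept cells (-0.024 to 0.53), Igf1 in mesenchyme (-1.95 to 1.14) and Igf2r in mesenchyme (-0.034 to 1.13). They kept sign but moved widely for Igf2 in all kept cells (0.014 to 1.02) and for Igf1r in mesenchyme (0.070 to 1.26) and in all kept cells (0.063 to 0.64). The cause was not tested. Where 1 batch is left at E9.5, it is assumed to vary like the E10 batches. No paired analysis was possible because replicate numbers were given in accession order and pair no batches. Depth limits Igf1 and Igf2r in blood, where means of 3.46 to 12.9 CPM are a few UMIs per cell.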

Other observations

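The 74 cells that met no class limit included 29 from E10 replicate 2. In these 74 cells Igf2 stood at 1130 ± 217 CPM (SD, n = 5 batches) and H19 at 1451 ± 574 CPM. Their median log2 ratio of Igf2 to H19 averaged -0.62 ± 0.75 over batches, between the neural and mesenchyme values, and 17 of the 74 held more Igf2 than H19. Igf1 averaged 53.1 ± 56.3 CPM, with a median over cells of 3.14 CPM beside 12.8 in mesenchyme and 1.31 in neural cells, Igf1r 116 ± 54.3 CPM and Igf2r 48.3 ± 19.1 CPM. The 7 of these cells at 100 CPM of Igf1 or more, chosen after their values were seen, had a median of 1461 CPM of Igf2 and 1172 CPM of H19.

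Endoderm, trophoblast and endothelial markers, of other tissues that make IGF2 in the embryo, were low in mesenchyme cells. Cardiac markers were less uniform there, with mean Actc1 at 66.3 CPM (median 1.33), Myl7 at 14.8 CPM and Tnnt2 at 0.421 CPM. The hepatic or yolk sac endoderm markers summed to a mean 10.1 CPM with Afp at 0, the trophoblast markers to 2.32 CPM with Tpbpa and Prl3d1 at 0, and the endothelial markers to 11.5 CPM.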
